A study of Mus musculus with 6 samples.

Results

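Neural stem / precursor cells (NSPCs) of the mouse subventricular zone (SVZ) were compared 7 days and 1 day after photothrombotic ischemia (PT D7 and PT D1). All cells that the authors' table names as NSC were taken, 147 in the 4 PT libraries, of 222 NSPCs and 658 cells in the whole series. The 76 NSPCs of PT D7 came from library 1 (15 cells) and library 2 (61 cells), and the 71 NSPCs of PT D1 from library 1 (19 cells) and library 2 (52 cells). All groups carried Nestin-CreERT2:R26-yfp, in which tamoxifen and the Nestin promoter start a yellow fluorescent protein in stem cells, and the mice had received tamoxifen for 5 days at 8 to 12 weeks of age, with PT 5 to 14 days after the last dose. PT, made with Rose Bengal and light, injures the cortex, and the SVZ was taken from the same hemisphere. The third group, uninjured, had the same transgenes and no PT, and its 75 NSPCs served as the reference level. NSPCs were sorted as YFP+ cells and microglia as CD11b+ CD45low cells, 1 per well, and sequenced by mCEL-Seq2, which counts mRNA molecules by a unique molecular identifier (UMI). Tissue of several mice was digested together, and the number of mice per library is not stated in the labels or methods. The p-values therefore measure the spread between libraries only, and a plate or sorting day cannot be told apart from the day after PT. In summed counts, fewer cells of a type and less RNA per cell cannot be told apart either.

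The SVZ is a niche in which new neurons form throughout adult life. Quiescent type B cells are astrocyte-like stem cells that rarely divide, activated type B cells have entered the cell cycle, type C cells are their rapidly dividing progeny, and these give rise to neuroblasts, young neurons that migrate to the olfactory bulb. Type B cells are part of an astroglial lineage and express Gfap, whereas neuroblasts express Dcx and other genes of young neurons.

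The NSPCs held 143666 and 337711 UMIs at PT D1 and 82504 and 395594 UMIs at PT D7, in libraries 1 and 2. The stem cell factor Sox2 stood at 570 to 661 counts per 1000000 UMIs (CPM) in the NSPCs of the 6 libraries and at 11.1 to 85.4 CPM in microglia, and the neuronal factor Sox11 at 1261 CPM or more against 147 CPM or less. The authors drew the classes from marker expression in these same cells, so this is a description and no separate check of the labels. The 16 microglia markers summed to 1427 and 1620 CPM in the NSPCs of PT D1 and to 3624 and 1231 CPM in those of PT D7. Relative to microglia of the same library this was 5.23% and 8.06% on the first day and 13.5% and 4.54% on the later one, so library 1 of PT D7 stood apart. At least 3 of the 16 markers had a UMI in 53.3% to 84.2% of the NSPCs of the PT libraries, and 1 of the 16 markers was at 0 in each of these 4 libraries. The Y-linked Ddx3y was at 14.9 and 13.4 normalized CPM at PT D1 and at 66.2 and 65.6 at PT D7, and the X-linked Xist at 171 and 114 and then at 52.9 and 82.8. Neither passed the test described below (edgeR adjusted p = 0.186 and 0.407), and the part of these differences in the results was not tested.

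The share of activated type B cells was lower and that of type C cells higher in both PT D7 libraries, in a design too small to pass a test. In cells with at most 10% mitochondrial UMIs, 2 to 15 per PT library, both directions turned, with differences of 0.24 and -25 percentage points. Activated type B cells were 6 of 19 (31.6%) and 19 of 52 (36.5%) NSPCs at PT D1, and 0 of 15, which allows a share of up to 20%, and 12 of 61 (19.7%) at PT D7. Both PT D1 libraries lay above both PT D7 libraries. The exact 95% binomial intervals were 12.6% to 56.6% and 23.6% to 51.0% at PT D1, and 0% to 21.8% and 10.6% to 31.8% at PT D7. The mean share of activated type B cells at PT D7 minus that at PT D1 was -24.2 percentage points, and -14.4 without PT D7 library 1.

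Type C cells were 5 of 19 (26.3%) and 4 of 52 (7.69%) NSPCs at PT D1 and 6 of 15 (40%) and 17 of 61 (27.9%) at PT D7, a mean 16.9 percentage points higher (7.62 without PT D1 library 2 and 26.2 without PT D1 library 1). Neuroblasts made up 21.1% and 28.8% of NSPCs on the first day and 33.3% and 34.4% on the later one, a mean 8.93 points higher (5.03 without PT D1 library 1). For these 2 subtypes the lower PT D7 library was also above the higher PT D1 library, in both by less than the counting error of 15 to 61 cells. Quiescent type B cells overlapped between the days, with shares of 21.1% and 26.9% on the first day and of 26.7% and 18.0% on the later one. The exact two-sided permutation p over the 4 libraries was 0.333 for neuroblasts, type C cells and activated type B cells, the smallest that 2 against 2 libraries can give, and 0.667 for quiescent type B cells. In the uninjured libraries neuroblasts were 37.5% and 49.2% and activated type B cells 25% and 6.78%. The authors drew the subtypes from the expression of these same cells, so the shares are a description and not separate from the genes below.

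**Figure D1:**
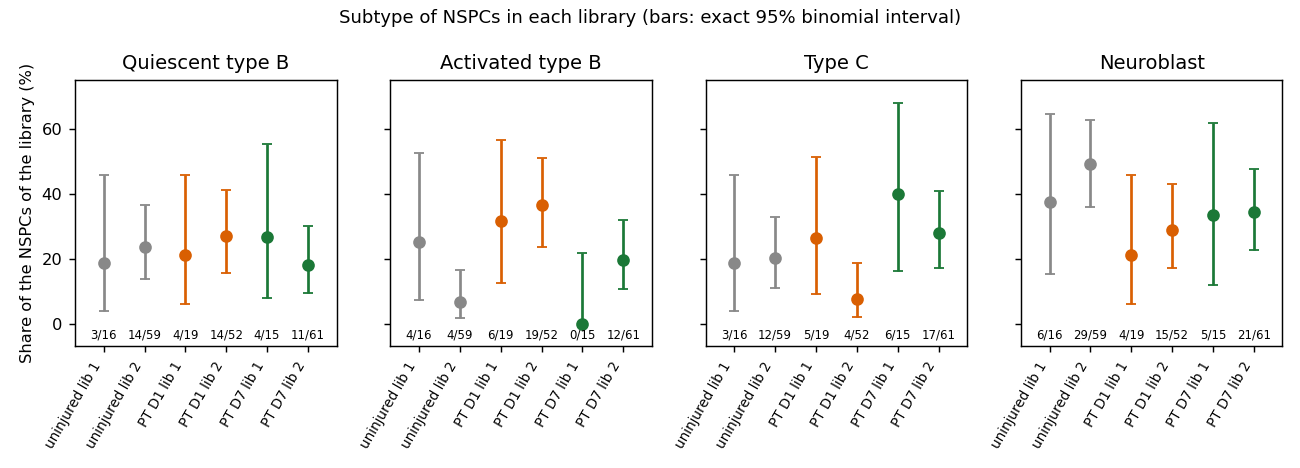
Share of each subtype (%) among the NSPCs of each of the 6 libraries, with exact 95% binomial intervals that cover counting error only and the cell counts printed below. The points of activated type B cells stand at 31.6% and 36.5% on the first day and at 0% and 19.7% on the later one, while the intervals of most libraries overlap.

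For genes, UMIs were summed over the NSPCs of each library and all 6 libraries were fitted together in edgeR, with PT D7 set against PT D1. Levels are CPM of the tested genes after TMM normalization. Of 4907 genes tested, 31 (0.632%) passed an adjusted p of 0.05. Among them 11 (0.224%) were higher and 20 (0.408%) lower at PT D7, and 532 genes had an unadjusted p under 0.05, 262 of them higher. The libraries of the 2 days did not overlap for 41.4% of the tested genes, so that alone says little. Over all tested genes the log2 fold changes had a median of -0.00. The number of calls rested on the libraries entered: it was 109 and 94 without uninjured library 1 or 2, 106 and 27 without PT D1 library 1 or 2, and 91 and 23 without PT D7 library 1 or 2. A set of 9 genes was called in all of these 6 fits, namely Mt1, Mt2, Egr1, Cdkn1a, Cirbp, Rbm3, Dlx6os1, Stmn2 and Igfbp5. The direction of every called gene was the same in each of these 6 fits that tested it. For all 31 the libraries of the 2 days did not overlap. Leaving out 1 library could thus hardly turn a direction, and this is no separate support. DESeq2, used as an alternative, called 6 of the 9 genes and not Mt1, Stmn2 or Igfbp5.

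**Figure D2:**
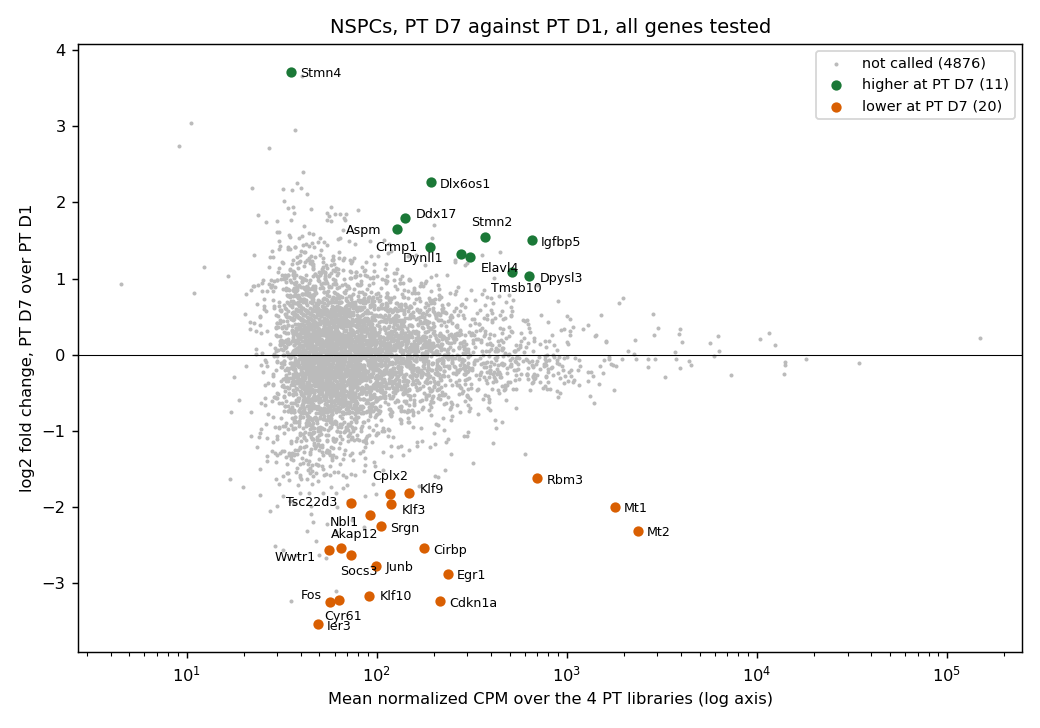
Log2 fold change of PT D7 over PT D1 in NSPCs for each of the 4907 genes tested, against the mean normalized CPM of the 4 PT libraries (log axis). The 11 genes called higher are green and the 20 called lower orange, and Mt1 and Mt2 are the most abundant of the called genes.

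The metallothioneins fell from PT D1 to PT D7. Mt1 and Mt2 encode small cysteine-rich proteins that bind zinc and copper and are induced by metals, glucocorticoids and cytokines through STAT3. Mt2 (GRCm39 chromosome 8, 94898819 to 94900207) was at 3251 and 4579 CPM at PT D1 and at 1006 and 642 CPM at PT D7. Every PT D1 library was far above every PT D7 library, and the uninjured libraries were lower still, at 374 and 629 CPM. The change of Mt2 was -2.31 ± 0.25 (log2 fold change ± SE, 2 libraries per day, edgeR adjusted p = 1.44e-05), which is 4.95-fold.

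Mt1, its neighbour on chromosome 8 (94905710 to 94906955), was at 2282 and 3345 CPM at PT D1 and at 1112 and 431 CPM at PT D7, against 642 and 559 CPM in uninjured NSPCs. The groups did not overlap, and the 2 PT D7 libraries lay on either side of the uninjured ones. Mt1 was 3.99-fold lower at PT D7 (SE 0.30 on the log2 scale, edgeR adjusted p = 0.000464). Socs3, the feedback inhibitor of STAT3 signaling, had only 8 and 50 UMIs at PT D1 (59.7 and 168 CPM) and 4 and 4 UMIs at PT D7 (52.9 and 11.4 CPM). Library 1 of PT D7 was thus close to library 1 of PT D1, and Socs3 was called at -2.63 ± 0.61 (edgeR adjusted p = 0.0412).

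These 3 genes were the called members of a list of metallothionein, STAT3 and reactive astroglial genes, of which 16 were tested, beside 0.408% of all genes tested that were called lower. This list and those below were chosen with earlier results of these data known, so such counts are no separate support. All 16 had a negative change, with a median of -1.04, against -0.00 over all genes. Gfap, the intermediate filament of astrocytes and quiescent stem cells, was at 246 and 622 CPM at PT D1 and at 304 and 111 CPM at PT D7. The days overlapped, and Gfap did not pass the test (-1.42 ± 0.40, edgeR adjusted p = 0.107). Cd44, Anxa2 and Hspb1 had values of -1.81, -1.46 and -1.57 without passing, and Vim and Nes had values of -0.15 and -0.20. The summed CPM of the whole list was 7190 and 10521 on the first day and 4024 and 2455 on the later one, with 1980 and 2234 in uninjured NSPCs. Most of the sum at PT D1 was Mt1 and Mt2, with 306 and 436 of 1033 UMIs in library 1. In library 2 of PT D1 they held 995 and 1362 of 3553 UMIs. At PT D7 they held 84 and 76 of 332 UMIs in library 1 and 151 and 225 of 971 in library 2. The fall of the sum is thus not separate from these genes. Mt1 and Mt2 stayed called without each library in turn, whereas Socs3 was lost without PT D7 library 2 and was not tested without PT D1 library 2.

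Short DNA motifs known to bind the factors of these responses were looked up on both strands in the 250 bases upstream of the start sites in the RefSeq promoter table (GRCm38.p6), which held 15 of the 20 genes called lower and 8 of the 11 called higher. Egr1, Klf10, Cyr61, Rbm3 and Akap12 among the genes called lower had no entry and were not searched. The same holds for Stmn2, Stmn4 and Dpysl3 among those called higher. The core of the metal response element, TGCACNC or TGCGCNC, lay upstream of Mt1, Mt2, Cirbp, Junb and Ier3 among the genes called lower, and upstream of Crmp1 and Elavl4 among those called higher, beside 21.3% of all 27025 promoters. The site of AP-1, made of Fos and Jun proteins, was searched as the loose pattern TGANTCA, with any base in the middle. This pattern lay upstream of Mt2 and Klf9 (6.87% of all promoters), in Klf9 as TGAATCA. The STAT site TTCNNNGAA lay upstream of Klf9 and Socs3 (7.18%). No AP-1 or STAT site stood in the 8 windows of genes called higher, and neither the cAMP response element TGACGTCA (1.62% of all promoters) nor the CArG box (1.40%) in any of the 23 windows. Bases further upstream were not searched, so an absence holds for these windows only. The sites below are shown because they lie beside the metallothionein and STAT3 genes that fell and beside Klf9. Capitals mark the motif in 10 flanking bases on each side, read 5′ to 3′ on the strand of the gene. The last of the metal response cores of Mt2 matches on the opposite strand, and none of the motifs shown overlaps another.
Mt1, metal response core, chr8:94179056-94179082, + strand: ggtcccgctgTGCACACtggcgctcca
Mt2, metal response core, chr8:94172385-94172411, + strand: gcatcgcctcTGCACCCggcccctcgg
Mt2, metal response core, chr8:94172480-94172506, + strand: gcagacccttTGCGCTCagctcctttg
Mt2, metal response core, chr8:94172558-94172584, + strand: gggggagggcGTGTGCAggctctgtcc
Mt2, AP-1 site, chr8:94172529-94172555, + strand: aaagggggtgTGACTCAgcgcgggggg
Socs3, STAT site, chr11:117969502-117969530, - strand: gaaaccagccTTCTTAGAAgggagggggg
Klf9, STAT site, chr19:23141183-23141211, + strand: cgtgatgggaTTCTGCGAAattgttactg
Klf9, AP-1 site, chr19:23141127-23141153, + strand: taaacagagtTGAATCAccctccccac
Mt1 thus held 1 metal response core in this window, 17 to 23 bases before the annotated start, and Mt2 held 3. A match is a description of these letters and not a measured site.

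Of the lists used here, immediate early genes were the largest group among the genes that fell. They are transcription factors and signaling regulators that are induced within minutes by growth factors, cytokines, calcium or stress. Egr1, a zinc finger factor of this class, was at 380 and 437 CPM at PT D1 and at 79.4 and 48.5 CPM at PT D7. Uninjured NSPCs had 57.5 and 62.9 CPM, between the 2 libraries of PT D7. Egr1 fell 7.33-fold (-2.87 ± 0.35, edgeR adjusted p = 3.64e-05).

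Junb, a subunit of AP-1, was at 142 and 205 CPM at PT D1 and at 26.5 and 25.7 CPM at PT D7 (-2.77 ± 0.50, edgeR adjusted p = 0.00475). Its PT D7 levels rested on 2 and 9 UMIs. Fos, the partner of Jun proteins in AP-1, had 9 and 43 UMIs at PT D1 and 0 and 5 UMIs at PT D7 (-3.25 ± 0.70, edgeR adjusted p = 0.0275). Jun itself had a value of -0.11 and Jund of 0.03, and neither passed. The difference between these subunits was not tested. Fos had a PT D7 library at 0 and only 5 UMIs in the other, so the size of its fitted change rests on few UMIs.

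Klf10, a TGF-beta-inducible factor, was at 82.0 and 239 CPM at PT D1 and at 26.5 and 17.1 CPM at PT D7 (-3.17 ± 0.55, edgeR adjusted p = 0.00382). Its PT D7 levels rested on 2 and 6 UMIs. Klf9, a factor induced by glucocorticoids and thyroid hormone, was at 201 and 256 CPM and then at 66.2 and 65.6 CPM (-1.82 ± 0.35, edgeR adjusted p = 0.0105), below the 163 and 167 CPM of uninjured NSPCs. Cyr61, a secreted matricellular protein and target of YAP and TAZ, had 6 and 57 UMIs at PT D1 and 0 and 6 UMIs at PT D7. Ier3, a stress-inducible survival gene, had 17 and 18 UMIs at PT D1 and 0 and 3 UMIs at PT D7. Both passed (edgeR adjusted p = 0.0275 and 0.0439), with a PT D7 library at 0 in each, and the same limit holds for their sizes.

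Of the 20 immediate early and AP-1 genes tested, 7 were called lower and 0 higher, and 13 did not pass. The list was chosen with earlier results of these data known, so this count is no separate support. Over all 4907 genes 0.408% were called lower, and 270 were lower at an unadjusted p under 0.05. The median log2 fold change of the list was -1.29, 18 of 20 values were negative, and 10 lower and 0 higher had an unadjusted p under 0.05. Without PT D1 library 2 or without PT D7 library 2 only Egr1 of the 7 stayed called, without PT D1 library 1 Ier3 was lost, and without either uninjured library or PT D7 library 1 all 7 stayed called. The summed CPM of the whole list was 2923 and 3755 at PT D1. It was 1661 and 1752 at PT D7 and 1747 and 1870 in uninjured NSPCs.

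Cdkn1a, which encodes the CDK inhibitor p21 that halts the cell cycle, was at 410 and 383 CPM at PT D1 and at 26.5 and 45.7 CPM at PT D7. These PT D7 levels rested on 2 and 16 UMIs. Uninjured NSPCs, at 144 and 62.9 CPM, lay between the days. Cdkn1a fell 9.43-fold (-3.24 ± 0.40, edgeR adjusted p = 3.64e-05). It was the 1 called gene of 8 tested D-type cyclins and CDK inhibitors, beside 0.632% called in either direction over all genes. Ccnd1 had a value of -2.67 and Cdkn1b of 0.63 without passing. Ccnd2, the D-type cyclin of neural progenitors, was at 3631 and 3318 CPM at PT D1 and at 4963 and 3861 CPM at PT D7 (0.34 ± 0.18, edgeR adjusted p = 0.499).

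Cirbp and Rbm3 encode RNA-binding proteins that rise in mild cold and in some stress states. Cirbp was at 343 and 279 CPM at PT D1 and at 26.5 and 59.9 CPM at PT D7, the latter from 2 and 21 UMIs (-2.54 ± 0.36, edgeR adjusted p = 0.000332). Rbm3 was at 1186 and 904 CPM at PT D1 and at 423 and 288 CPM at PT D7 (-1.62 ± 0.25, edgeR adjusted p = 0.00099). For both genes all PT D7 libraries were below all PT D1 libraries, and uninjured NSPCs were near PT D7, with 95.8 and 84.7 CPM of Cirbp and 249 and 302 CPM of Rbm3.

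The other 7 genes called lower belong to no common list. Wwtr1 encodes TAZ, the co-activator of the Hippo pathway, and was at 82.0 and 111 CPM at PT D1 and at 13.2 and 17.1 CPM at PT D7. Akap12, a scaffold for protein kinase A, was at 127 and 101 CPM and then at 13.2 and 20.0 CPM. Tsc22d3, the glucocorticoid-induced leucine zipper, was at 104 and 138 CPM and then at 13.2 and 37.1 CPM. Nbl1, a secreted BMP antagonist, was at 157 and 148 CPM and then at 26.5 and 37.1 CPM. The PT D7 levels rested on 1 and 6 UMIs for Wwtr1 and on 1 and 7 for Akap12. For Tsc22d3 they rested on 1 and 13 UMIs and for Nbl1 on 2 and 13, so the sizes of these changes rest on few UMIs. Klf3, a transcriptional repressor, changed by -1.95, Srgn, the core protein of a proteoglycan of blood cell granules, by -2.25, and Cplx2, a regulator of vesicle fusion, by -1.83. None of these 7 was called in all 6 fits without 1 library: Cplx2 was called in 5 of them and the others in 4.

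Of the 11 genes that rose, 5 belong to the neuroblast list. Dlx6os1, a long noncoding RNA of the Dlx5 and Dlx6 locus expressed in GABAergic progenitors, was at 59.7 and 70.6 CPM at PT D1 and at 318 and 325 CPM at PT D7. Uninjured NSPCs had 345 and 377 CPM, so PT D1 stood apart from the other 4 libraries. Dlx6os1 rose 4.81-fold (2.27 ± 0.32, edgeR adjusted p = 0.000309). The authors' counting is not described as to strand, so reads of a gene on the other strand cannot be told apart from it.

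Stmn2, a microtubule regulator of growing neurites, was at 164 and 212 CPM at PT D1 and at 529 and 585 CPM at PT D7 (1.55 ± 0.27, edgeR adjusted p = 0.00382). Its relative Stmn4 had 2 and 0 UMIs at PT D1 and 4 and 26 UMIs at PT D7 (3.72 ± 0.84, edgeR adjusted p = 0.0346), too few for the size to be read. Crmp1 and Dpysl3, members of the collapsin response mediator family that steers axons, rose 2.66-fold and 2.04-fold (edgeR adjusted p = 0.0311 and 0.0487). Crmp1 was at 89.5 and 121 CPM and then at 225 and 325 CPM. Dpysl3 was at 418 and 400 CPM and then at 1032 and 691 CPM. For both genes the days did not overlap.

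Of 30 neuroblast genes tested, 5 were called higher and 0 lower, and 25 did not pass. Here too the list was chosen with earlier results of these data known. Among all 4907 genes tested 0.224% were called higher, and 262 were higher at an unadjusted p under 0.05. The list's median was 0.42 with 26 of 30 values positive, and 14 higher and 0 lower had an unadjusted p under 0.05. Dcx, the doublecortin that marks neuroblasts, was at 171 and 208 CPM at PT D1 and at 304 and 391 CPM at PT D7 (0.89 ± 0.28, edgeR adjusted p = 0.17). Stmn1 and Sox11 had values of 0.74 and 0.68, and Gad1, Gad2, Sp8 and Sp9 values of 0.13 to 0.21. The list as a whole summed to 13483 and 12668 CPM at PT D1, 17611 and 18281 CPM at PT D7 and 18177 and 17044 CPM in uninjured NSPCs. Dlx6os1 and Stmn2 stayed called without each library in turn. Crmp1 was lost without PT D1 library 1 or PT D7 library 2, Dpysl3 without PT D1 library 2 or PT D7 library 1, and Stmn4 without PT D1 library 2 or PT D7 library 2, and without uninjured library 2 it was not tested.

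Another 6 genes rose. Igfbp5, a secreted binding protein of insulin-like growth factors, was at 209 and 430 CPM at PT D1 and at 1244 and 736 CPM at PT D7 (1.51 ± 0.29, edgeR adjusted p = 0.0127), with uninjured NSPCs at 738 and 566 CPM. Aspm, a spindle pole protein of dividing progenitors, was at 59.7 and 67.2 CPM and then at 159 and 225 CPM (1.66 ± 0.36, edgeR adjusted p = 0.0275). Ddx17, an RNA helicase, was at 74.6 and 57.2 CPM and then at 199 and 234 CPM (1.80 ± 0.36, edgeR adjusted p = 0.0134). Elavl4, a neuronal RNA-binding protein, Dynll1, a dynein light chain, and Tmsb10, an actin-binding peptide, rose 2.42-fold, 2.49-fold and 2.13-fold (edgeR adjusted p = 0.0337, 0.0275 and 0.0332).

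**Figure D3:**
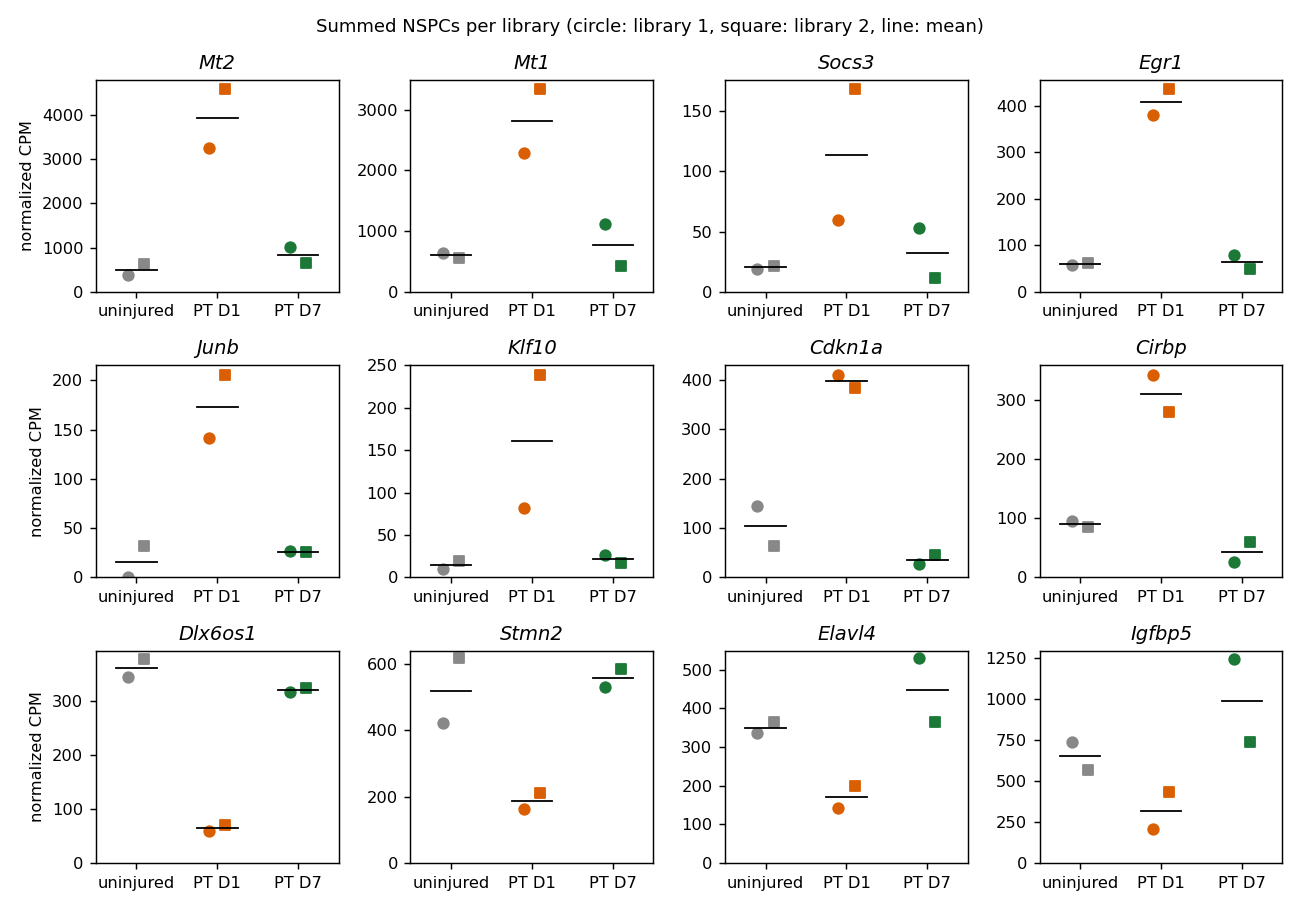
Normalized CPM of 12 called genes in the summed NSPCs of each library (circle library 1, square library 2, line mean of the 2). The 8 genes in the upper 2 rows were higher in both PT D1 libraries than in both PT D7 libraries, and the 4 in the lower row were lower in both PT D1 libraries.

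To set the subtype mix beside these changes, each library was given the level that its shares of UMIs per subtype would produce with the levels of uninjured cells held fixed. For the 20 genes called lower, the mix alone gave a median log2 difference of 0.11 (range -1.33 to 0.93), where the observed median was -2.54. With levels from the cells of all 6 libraries, PT cells included, all 20 values were negative, with a median of -0.33 (range -0.92 to -0.02). The genes were picked by their difference between the days, and cells of both days enter these levels. The sign of such values is thus partly built in. For 12 of these 20 genes the uninjured levels rested on fewer than 20 UMIs. For the 11 genes called higher, the mix alone gave a median of 0.60 (range -0.34 to 0.93), where the observed median was 1.51, and 0.57 (range -0.19 to 0.81) with levels from all libraries. Over all genes tested the mix alone gave a median of -0.01, with 5th and 95th percentiles of -0.56 and 0.52.

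Single genes differed in how near both values were. Tmsb10 had 0.77 from the mix and 1.09 ± 0.24 observed, and Crmp1 0.92 from the mix and 1.41 ± 0.31 observed. Stmn2 had 0.73 and 1.55, and Dlx6os1 0.72 and 2.27. For Igfbp5, Aspm and Ddx17 the mix gave -0.32, -0.34 and -0.06 with uninjured levels and -0.19, -0.01 and 0.23 with levels from all libraries, so the side of 0 for Ddx17 depended on that choice. Among the genes called lower, Nbl1 was nearest, with -1.33 from the mix and -2.10 ± 0.45 observed, while Mt1, Egr1 and Cdkn1a had -0.03, 0.37 and -0.77 from the mix. With levels from all libraries the mix gave 0.81 for Dlx6os1, 0.58 for Tmsb10, -0.41 for Egr1 and -0.87 for Klf10, which had 0.93 with uninjured levels. Genes of the study that were not called also differed in this. With uninjured levels, Egfr had -1.36 from the mix and -0.10 ± 0.32 observed, and Mki67 -0.31 and 1.01 ± 0.26. Dcx was near, with 0.73 from the mix and 0.89 ± 0.28 observed.

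**Figure D4:**
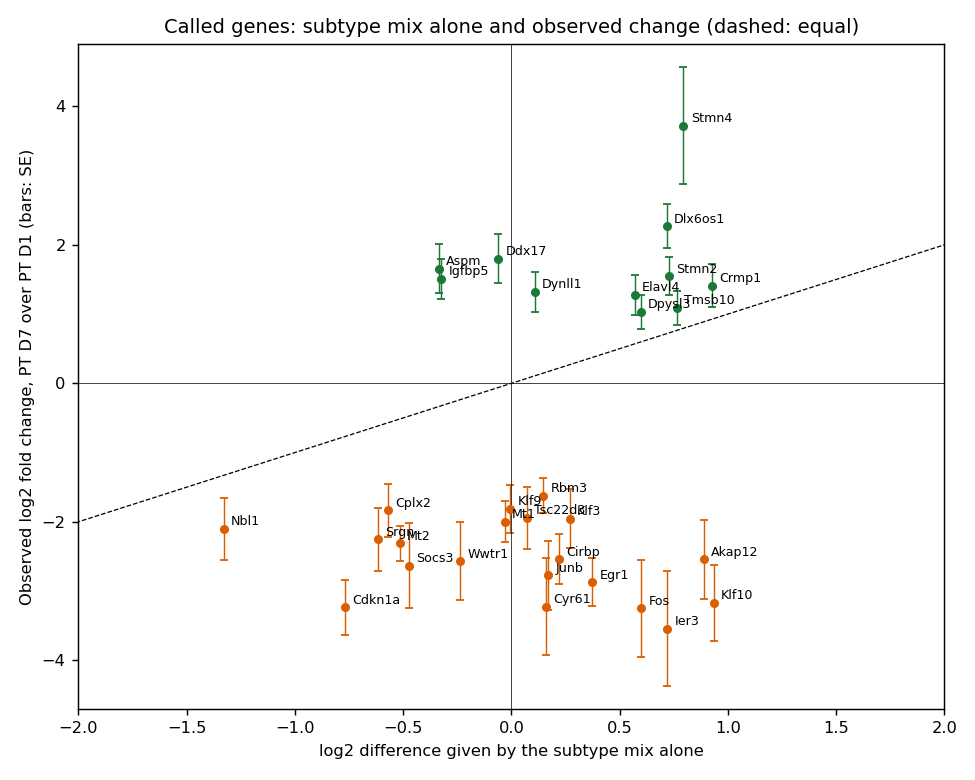
Observed log2 fold change of PT D7 over PT D1 (vertical axis, bars SE of the fit) against the log2 difference that the subtype mix alone gives with levels of uninjured cells (horizontal axis) for the 31 called genes. The genes called lower spread between -1.33 and 0.93 along the horizontal axis and lie below -1.6 on the vertical axis, and every gene called higher lies above the dashed line of equal values.

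Within the subtypes the called genes mostly kept their direction. Cells of a day were pooled here, and the activated type B cells of PT D7 all came from library 2. The values have no replicate error and no test, and only genes with at least 10 UMIs over both days are counted. The genes were picked from the sums of these same cells, so a shared direction is partly built in and is no separate support. Of the genes called lower in all NSPCs, 19 of 19 were lower in quiescent type B cells, 19 of 19 in activated type B cells, 8 of 8 in type C cells and 7 of 7 in neuroblasts. Their median log2 differences were -2.43, -2.05, -1.63 and -1.40, in the same order. Of the genes called higher, 3 of 4 were higher in quiescent type B cells, 8 of 8 in activated type B cells, 10 of 10 in type C cells and 11 of 11 in neuroblasts, and the exception was Dpysl3.

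Mt2 was at 10464 CPM of all UMIs in quiescent type B cells of PT D1 and at 1940 CPM at PT D7, and at 3097 and 1090 CPM in activated type B cells. In neuroblasts it was at 111 and 106 CPM, from 9 and 14 UMIs, so the larger differences were in type B cells. Egr1 went from 775 CPM (80 UMIs) to 12.6 CPM (1 UMI) in quiescent type B cells and from 365 to 66.1 CPM in activated type B cells, and was at 86.4 and 45.6 CPM in neuroblasts from 7 and 6 UMIs. Cdkn1a went from 610 to 25.2 CPM in quiescent type B cells and from 492 to 17.0 CPM in type C cells. It went from 284 to 110 CPM in activated type B cells and from 74.0 to 22.8 CPM in neuroblasts, the last from 6 and 3 UMIs. Over all subtypes Cdkn1a had only 2 and 16 UMIs in the PT D7 libraries, so its PT D7 level in each subtype rests on few UMIs.

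Cirbp was lower in every subtype, from 155 to 12.6 CPM in quiescent type B cells, 261 to 44.0 CPM in activated type B cells, 359 to 62.4 CPM in type C cells and 345 to 53.2 CPM in neuroblasts. Over all subtypes Cirbp had only 2 and 21 UMIs in the PT D7 libraries, so these PT D7 levels rest on few UMIs. Igfbp5 went from 349 to 1335 CPM in quiescent and from 320 to 1079 CPM in activated type B cells, against 345 and 661 CPM in neuroblasts. Stmn2 had most of its UMIs in neuroblasts on both days and was there at 839 CPM at PT D1 and at 1451 CPM at PT D7. Dlx6os1 was at 26.6 CPM (2 UMIs) in type C cells of PT D1 and at 295 CPM (52 UMIs) at PT D7, and at 321 and 631 CPM in neuroblasts.

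**Figure D5:**
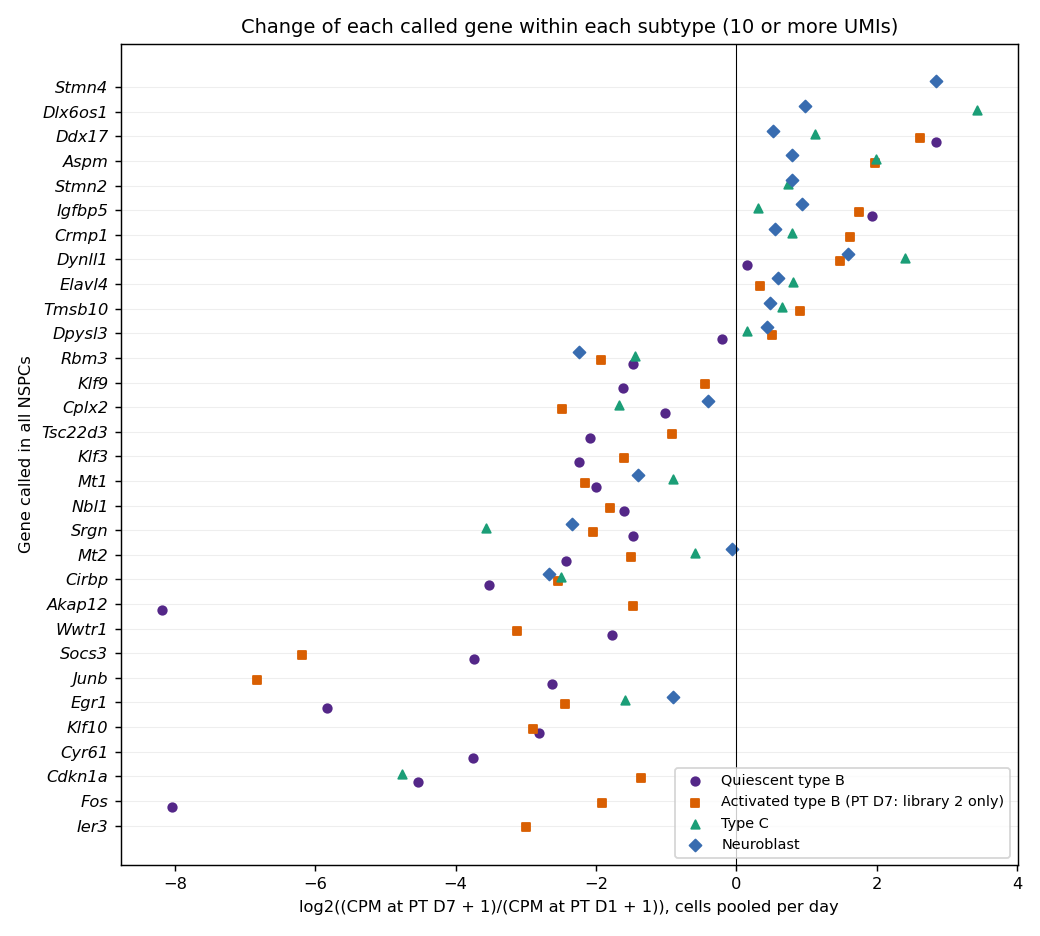
Log2 ratio of PT D7 over PT D1 within each subtype, with 1 CPM added to both days and the cells of a day pooled (activated type B cells of PT D7 from library 2 only), for the genes called in all NSPCs and only where a subtype held at least 10 UMIs of the gene. Nearly all points of a gene lie on the same side of 0, and Dpysl3 in quiescent type B cells (-0.20) is the exception.

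A fit over sums per library and subtype, with a term for subtype (limma-voom), tested 19 of the 31 genes. Those genes were picked from these same cells, so shared directions in this and the next fits are partly built in. The same holds for how many of them passed. The counts over all genes in each of these fits stand in the section on processing below. The subtype sums of 1 library had an estimated correlation of -0.01 in the limma-voom fit. They thus counted nearly as separate replicates, and its p-values do not measure the spread between libraries alone. Of the 9 tested among those called lower, 8 passed: Mt1, Mt2, Egr1, Klf9, Cdkn1a, Cirbp, Rbm3 and Srgn. Of the 10 tested among those called higher, Aspm, Ddx17, Dynll1 and Igfbp5 passed. None of the 4 neuroblast genes tested passed, with values of 1.54 for Dlx6os1, 0.98 for Stmn2, 0.61 for Crmp1 and 0.32 for Dpysl3 (limma adjusted p = 0.058, 0.153, 0.425 and 0.495). At an unadjusted p under 0.05, Dlx6os1 and Stmn2 were below it. In quiescent type B cells alone (chosen after seeing the data), Mt1, Mt2, Egr1, Cdkn1a and Igfbp5 passed of 9 tested, and all 9 had the same direction as in all NSPCs. In neuroblasts alone 0 of 11 and in type C cells alone (also chosen after seeing the data) 0 of 11 passed in edgeR, 7 and 6 of them with an unadjusted p under 0.05 and all with the same direction. Cirbp, for example, had -2.51 in neuroblasts and -2.58 in type C cells (edgeR adjusted p = 0.15 and 0.494).

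Genes that the study follows in these cells did not pass the main edgeR test, which does not show that they were equal on both days. In the limma-voom fit with a term for subtype, Egfr passed with a positive value, and 2 other genes of the study passed too. In edgeR, 1 gene of the study passed with no filter on low counts and 1 without activated type B cells. Which of them passed also varied with the library left out. Sox2 was at 708 and 740 CPM at PT D1 and at 622 and 693 CPM at PT D7 (-0.13 ± 0.22, edgeR adjusted p = 0.879). Egfr, the receptor that marks activated type B cells, was at 201 and 178 CPM and then at 146 and 188 CPM (-0.10 ± 0.32, edgeR adjusted p = 0.939).

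Mki67, the proliferation antigen, was at 291 and 279 CPM and then at 397 and 685 CPM (1.01 ± 0.26, edgeR adjusted p = 0.0844), without overlap. Apoe, the lipoprotein of astroglia and microglia, was at 1409 and 3177 CPM and then at 4023 and 2785 CPM (0.54 ± 0.26, edgeR adjusted p = 0.459). Bcl2, the apoptosis inhibitor, had 8 and 13 UMIs and then 3 and 16 UMIs (-0.16 ± 0.55, edgeR adjusted p = 0.945). Gas6, a ligand of TAM receptors, had 0 and 8 UMIs at PT D1 and 0 and 2 UMIs at PT D7, and Lrp8, a receptor of Apoe and reelin, 2 and 8 and then 2 and 15 UMIs. Both were under the filter on low counts and were not tested, so a difference was not detectable at this depth.

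Other lists held no called gene beside those named. For comparison, 262 of all 4907 genes tested were higher and 270 lower at an unadjusted p under 0.05, and 0.632% were called in either direction. Of 50 G2 and M phase genes tested, 42 had positive values with a median of 0.60, and 16 higher and 0 lower had an unadjusted p under 0.05, while 0 passed the adjustment in edgeR. The summed CPM of these genes was 8770 and 6094 on the first day and 5479 and 11140 on the later one, so the days overlapped and library 2 of PT D7 was the highest. Of 14 type C genes 0 passed (4 higher and 0 lower at an unadjusted p under 0.05, median 0.38), and the nearest was Dlx2, a homeobox factor of these progenitors, at 1.09. Of 18 activated type B genes 0 passed (0 higher and 3 lower unadjusted, median -0.12), among them Gas1 at -1.31 and Thrsp at -1.61. Of 26 quiescent type B and astroglial genes 0 passed (3 higher and 4 lower unadjusted, median 0.01). Cytosolic ribosomal protein genes had a median of -0.25 with 64 of 70 values negative, and 0 had an unadjusted p under 0.05. The 32 S phase genes had a median of 0.07, the 26 chaperone genes of 0.09, the 76 oxidative phosphorylation genes of 0.04, the 13 lipoprotein receptor and sterol genes of 0.15 and the 14 BMP, Id and Notch genes of -0.03. Of 13 apoptosis genes 1 was called, Cdkn1a, and the 8 interferon and MHC class I genes and 13 mitochondrially encoded genes had medians of 0.25 and -0.05.

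Markers of other cells could be followed in the same sums, where 262 of all 4907 genes were higher and 270 lower at an unadjusted p under 0.05. Of the microglia markers 8 were tested and 0 called (4 higher and 0 lower at an unadjusted p under 0.05), with a median of 0.70. Choroid plexus markers summed to 50.3 to 109 CPM in the 4 PT libraries and to 1541 and 3843 CPM in uninjured NSPCs, whose levels enter the mix calculation above. In the PT libraries ependymal markers summed to 20.7 to 69.6 CPM, oligodendrocyte precursor markers to 11.8 to 36.4 CPM and endothelial and mural markers to 13.9 to 97.0 CPM. Mature neuron markers summed to 20.9 to 85.9 CPM and blood cell markers to 20.9 to 30.3 CPM. Oligodendrocyte markers summed to 167 and 708 CPM at PT D1 and to 703 and 872 CPM at PT D7, with 0 of 4 tested called (1 higher and 1 lower at an unadjusted p under 0.05).

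Several of the genes that fell in NSPCs are also expressed by microglia. For each called gene, the microglial level of the same library was multiplied by the ratio of the summed microglia markers in NSPCs to those in microglia. At PT D1 this gave a median of 1.81% of the level in NSPCs over the 31 called genes, and more than 20% for 3 genes, with 48.5% for Srgn, 33.3% for Ier3 and 23.3% for Socs3. It was 1.01% for Mt2, 2.41% for Egr1 and 7.31% for Cdkn1a. At PT D7, where the levels in NSPCs were low, the same product came to 88.1% for Junb, 59.2% for Fos and 103% for Ier3. Srgn was at 1512 and 808 CPM of all UMIs in microglia of PT D1 and at 156 and 260 CPM at PT D7, so the carried level moved the same way as the level in NSPCs, and its part in the result was not tested beyond this product.

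In microglia of the same 4 libraries the change from PT D1 to PT D7 was -2.95 ± 0.45 for Mt2, -2.04 ± 0.39 for Mt1, -2.57 ± 0.39 for Cdkn1a, -2.48 ± 0.53 for Cirbp and -1.98 ± 0.31 for Rbm3. The values in NSPCs in the same fit were -2.28, -1.94, -3.23, -2.53 and -1.60. In an edgeR fit of both classes with an interaction term, 0 of 7514 genes (0%) differed in their change between NSPCs and microglia, and 439 had an unadjusted p under 0.05. NSPCs and microglia share their libraries. With each of the 6 libraries as a block (added after seeing the data) 10 genes differed, none of them among the 31, and with the library number as a block 3. The count was 4 without PT D1 library 1, and 0 without any other single library. The smallest unadjusted p among the genes named here was that of Junb, with -2.73 in NSPCs and -0.61 in microglia (edgeR adjusted p = 0.506). Klf3 had -1.88 in NSPCs and -0.02 in microglia, and Egr1 -2.84 and -0.83. The absence of calls among the 31 genes does not show that both classes changed alike.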

How the data were processed

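The authors deposited raw UMI counts per gene and cell (34203 rows, of which 92 ERCC rows held 0 UMIs) and a table of class and subtype per cell, both made from mCEL-Seq2 reads with bcl2fastq 2.17.1.14 and GRCm39 per the labels. Neither aligner nor annotation is stated in the labels or methods. The authors had removed cells under 1000 UMIs or above 25% mitochondrial UMIs, and, as putative doublets, cells over 3 median absolute deviations above the median UMI total. No cell barcode name was shared between libraries. The table deposited by the authors also gives a percent of mitochondrial UMIs per cell, and 14 of its columns were not used. The number of each PT D7 library comes from the final digit in its cell names and is only a name.

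Counts were summed over NSPCs per library. All 3 conditions were fitted in edgeR 4.0.16 (R 4.3.3) with TMM, filterByExpr, the quasi-likelihood test and Benjamini-Hochberg adjustment over all genes tested, which was checked on simulated counts. Those counts were drawn from the kind of count model that edgeR fits, with the spread estimated here and no plate or subtype effect. That check is thus no support for the calls. Limma 3.58.1 (voom) and DESeq2 1.42.0 gave alternatives, and scipy 1.17.1 gave exact tests and Clopper-Pearson intervals, which cover counting error only. Named genes were the 15 largest rises and 15 largest falls among called genes whose mean reached 50 CPM and whose libraries were separate, called list members and the genes the study follows. Cplx2, Rbm3 and Tsc22d3 were called outside the rule and named after their values were seen. The members and lists were chosen with earlier results of these data known. The log2 ratios within subtypes and from the mix carry a pseudocount of 1 CPM. One of the genes the study follows is not reported here.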

Additional observations from a re-analysis of the deposited data

How the results depend on the processing

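The count of 31 called genes became 6 with DESeq2 (6 of the 31), 69 with no filter on low counts and 9 with at least 10 counts in every library. It was 16 without activated type B cells and 55 in limma-voom with a term for subtype, where the sums of 1 library counted nearly as separate replicates. It was 10 beyond a log2 fold change of 0.5 (glmTreat), 8 in quiescent type B cells alone and 0 in type C cells alone, these 3 chosen after the data had been seen. It was 0 in neuroblasts alone (64 genes at an unadjusted p under 0.05), 0 in cells with at most 10% mitochondrial UMIs (613 genes tested, 2 to 15 cells per PT library) and 0 in cells with fewer than 3 microglia markers (323 genes tested, 3 to 11 cells per PT library), where few cells remained. Leaving out 1 library gave 23 to 109. No TMM normalization gave 44, DESeq2 size factors 31, only the PT libraries 23 and at least 2000 UMIs 35. Among named genes called in the main fit or in the setting itself, the sign turned for Rbm3 in cells with fewer than 3 microglia markers (0.40). It also turned for Egfr in the limma-voom fit (0.93), where Egfr passed. Turns of genes called in neither fit were not counted.

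In expression, the deviations of same-numbered libraries correlated by 0.10, -0.06 and -0.04, which gave no sign of pairing by library number but cannot exclude it. The number of NSPCs did follow the library number. It was 16, 19 and 15 in library 1 and 59, 52 and 61 in library 2 (uninjured, PT D1 and PT D7, the last number only a name). With the library number as a replicate block, 16 genes were called, all among the 31, and 3 differed between NSPCs and microglia, which became 10 with each of the 6 libraries as a block, added after the data had been seen. The latter count was 1 with at least 10 counts in every sum and 0 to 4 without 1 library.

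In cells with at most 10% mitochondrial UMIs the difference in share was 16.4 percentage points for quiescent type B cells, 0.24 for activated type B cells and -25 for type C cells. In cells with fewer than 3 microglia markers it was -0.87 for neuroblasts. Without 1 library it ran from -5.96 to 2.68 for quiescent type B cells. For the other subtypes it kept its sign, which was fixed because their shares did not overlap between the days. Few cells and 2 libraries per day limit all shares, and genes under about 50 CPM rest on few UMIs. In PT D7 library 1 higher levels do so too, as with Egr1 at 79.4 CPM from 6 UMIs.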
